A study of Mus musculus with 12 samples.

Results

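The genes described here encode enzymes that mammals use to modify and clear drugs, plant compounds, hormones and fatty acids. They were chosen by symbol: P450 genes of the Cyp2, Cyp3 and Cyp4 families, the UDP-glucuronosyltransferases Ugt1 and Ugt2, the sulfotransferases Sult, and the glutathione S-transferases Gsta, Gstk, Gstm, Gsto, Gstp and Gstt. Of 17734 genes in the table, 95 had such a symbol, and 74 of these had a mean of at least 0.1 FPKM over all mice. FPKM is a level per length of transcript and per number of reads sequenced. The 74 genes comprised 38 P450, 7 Ugt, 9 Sult and 20 Gst genes. The 21 genes below the limit included Cyp2b10, with a mean of 0.0342 FPKM, Cyp3a25, with 0.0192 FPKM, and Cyp4f37, listed at 0 in every mouse. The highest mean left out was 0.0925 FPKM (Cyp4a30b) and the lowest kept was 0.123 FPKM (Cyp2j13).

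Drug metabolism is usually divided into phases. P450 enzymes of the endoplasmic reticulum oxidize their substrates, a reaction that needs electrons from the reductase Por. Ugt, Sult and Gst enzymes then attach glucuronic acid, sulfate or glutathione, which makes the products water-soluble. The liver is the main site, but the colonic epithelium expresses its own set of these enzymes and meets food and bacterial compounds first.

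RNA came from rectal tissue of 12 adult male C57BL/6 mice, divided equally among 4 groups, namely normal mice and colitis mice, each with or without berberine (BBR). The colitis model used DSS, a polysaccharide that injures the colonic epithelium, given for 7 days at 2.5% in the drinking water. BBR, a plant alkaloid, was given by gavage, at 100 mg/kg in the study's treatment experiments, for 7 days by the sample titles and 6 days by the protocol. The sample titles number the mice 1, 3 and 4 in each normal group. Colitis mice carry the numbers 1, 2 and 4, and those receiving BBR the numbers 2, 3 and 4. Bulk tissue was measured, so fewer cells of a type and less RNA per cell cannot be told apart.

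The label of the tissue held against its markers: the epithelial gene Epcam was between 780.04 and 1200.54 FPKM in the 12 mice, while the hepatocyte genes Alb, Apoa1, Apoa2, Fgb and Serpina3k stayed at or below 4.52 FPKM. Ttr, of the same list of 6, was 10.84 to 74.07 FPKM, and with Alb it fell in colitis against normal mice (log2 -1.79 and -2.99). The 4 mice numbered 4 stood apart. Their values summed to 482194 to 504337 FPKM, against 696286 to 765876 in the other mice, and fewer genes were listed at 0 (872 to 1086 against 1332 to 1926). Depth is not given. The steps between low values were read with a length offset, in bases, taken off each transcript. It was estimated at 0 to 50 for number 4 and at 175 to 300 elsewhere. Its part in the levels of short transcripts was not tested. For every 1000 bases left after the offset, 1 FPKM stood for about 17.4 to 19.0 reads in the mice numbered 4. For the others it stood for 14.3 to 16.7 reads. On that estimate 3 reads on 2000 bases were worth 0.0788 to 0.118 FPKM. Each group holds 1 mouse numbered 4.

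The first question was how the enzymes differed between colitis and normal mice without BBR. Of 74 genes 56 had lower and 18 higher means in colitis mice, and the share lower, 75.7%, was near the 73.7% of all 15315 genes tested. The median log2 difference was -0.99 for the members and -0.32 for all genes. With the limit used in the study, an unadjusted P no higher than 0.05, 30 members were lower and 3 higher. The same limit was passed downwards by 15.9% and upwards by 5.56% of all genes. After adjustment over all genes, 2 members fell, Cyp2d26 and Cyp2j9, and 0 rose, where 0.424% of all genes fell and 0.653% rose. With the mice numbered 4 as a block 14 members passed this limit: Cyp2c65 and Gsta4 upwards, and Cyp2c23, Cyp2c40, Cyp2c69, Cyp2d11, Cyp2d26, Cyp2j9, Gstm1, Gstm3, Gstm4, Gstm6, Gstt1 and Sult2b1 downwards. In that fit 2.8% of all genes passed it upwards and 6.42% downwards. In 36 members every colitis mouse was below every normal mouse, and in 3 every colitis mouse was above, against 22.2% and 7.1% of all genes. With 3 mice a group the exact two-sided permutation test cannot give a p below 0.1, so single genes are given with the limma fit, as log2 differences with their SE and the p adjusted over all genes. A gene called higher or lower with an adjusted p above 0.05 passed the unadjusted limit, unless stated otherwise.

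The counts of each class of enzyme are read against the 73.7% of all genes that were lower. Of the P450 genes 29 of 38 were lower, with a median of -1.29, and 18 passed the unadjusted limit downwards. For Ugt the counts were 6 of 7 lower and 2 past the limit, with a median of -1.06. For Sult they were 7 of 9 (6 of 9 after centring) and 3, with a median of -0.88. Among Gst genes 14 of 20 were lower and 7 passed the limit downwards, with a median of -0.61. The medians and the counts past the limit stand beside -0.32 and 15.9% for all genes. The median of all genes was itself below 0 in this comparison, and it moved to -0.05 after quantile normalization and to 0.02 after centring each mouse on its median. Members then had medians of -0.74 and -0.65, with 29 lower and 6 higher, and 23 lower and 6 higher, past the unadjusted limit. Of all genes 9.93% were past it downwards and 9.72% upwards after quantile normalization, and 8.13% and 9.42% after centring.

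**Figure D1:**
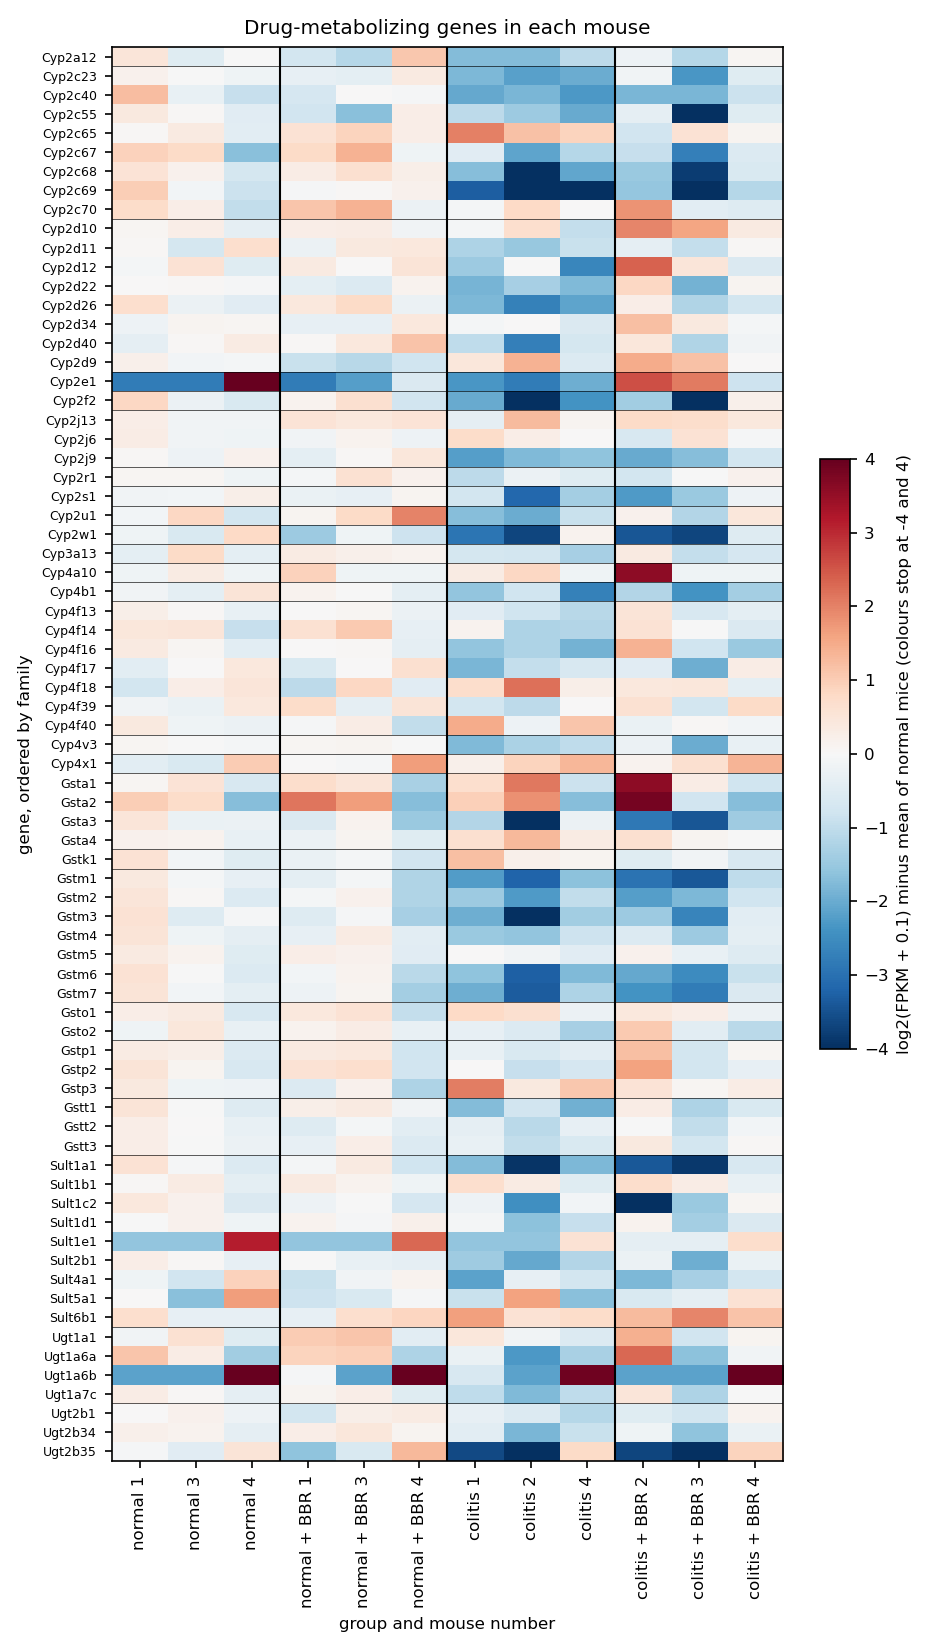
Level of each of the 74 genes (rows, ordered by family) in each of the 12 mice (columns) as log2(FPKM + 0.1) minus the mean of the 3 normal mice. Blue is lower and red is higher than in normal mice. In colitis mice 56 of 74 genes had lower means, a share of 75.7% against 73.7% of all genes, and the column of colitis mouse 2 receiving BBR is redder than those of the other colitis mice.

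Cyp2d26, a member of the family that oxidizes many basic drugs, was 24.06, 12.66 and 10.98 FPKM in normal mice and 4.23, 2.22 and 3.40 FPKM in colitis mice. The groups did not overlap. It fell by 2.2 on the log2 scale (SE 0.43, limma, adjusted p = 0.0382). Cyp2j9, of the family that makes epoxides from arachidonic acid, was far less abundant, at 1.66, 1.38 and 1.83 FPKM in normal mice against 0.27, 0.40 and 0.46 FPKM. It fell by 1.87 (SE 0.39, adjusted p = 0.0477). Both calls were lost whenever any 1 of the 6 mice was left out, with 0 members past the adjusted limit in each case. Over all alternatives the log2 difference ran from -2.47 to -1.86 for Cyp2d26 and from -2.10 to -0.93 for Cyp2j9, the smallest with 1 added before the logarithm.

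Cyp2c enzymes oxidize drugs, retinoids and arachidonic acid. Their 8 levels summed to 660.6, 512.7 and 335.4 FPKM in normal mice and 222.5, 137.7 and 124 FPKM in colitis mice. Cyp2c55 and Cyp2c68 made up most of this sum. Cyp2c68 was 212.28, 165.9 and 88.93 FPKM in normal mice and 44.73, 9.13 and 34.57 FPKM in colitis mice, a log2 difference of -2.59 (SE 0.74, adjusted p = 0.101). Cyp2c69 had the lowest log2 difference of all members, -4.71 (SE 1.04, adjusted p = 0.0555). It was 13.46, 6.33 and 3.68 FPKM in normal mice and 0.61, 0 and 0.16 FPKM in colitis mice, and the mouse at 0 makes the size depend on the 0.1 added before the logarithm: with 1 added it was -2.68 and passed the adjusted limit (0.031).

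The other Cyp2c genes differed among themselves. Cyp2c55 was the most abundant, at 424.42, 330.2 and 237.04 FPKM in normal mice and 155.64, 116.62 and 79.16 FPKM in colitis mice. Its groups did not overlap, but with an SE of 0.94 its log2 difference of -1.51 did not pass the limit. Cyp2c23 (-1.98) passed the unadjusted limit at a mean of 1.97 FPKM in normal mice. Cyp2c40 passed it too, at 1.06, 0.3 and 0.16 FPKM in normal and 0.02, 0.04 and 0 FPKM in colitis mice, all of the latter below the 0.0874 to 0.133 FPKM that 3 reads are worth. It reached the mean of 0.1 FPKM only through the normal groups, so its count downwards supports nothing. Its fitted difference of -2.06 was -0.52 with 1 added before the logarithm and -3.96 with 0.01 added. Cyp2c67 (-1.23) and Cyp2c70 (0.25) did not pass the limit.

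Cyp2c65 went the other way. It was 5.09, 6.31 and 3.66 FPKM in normal mice and 20.26, 11.18 and 9.24 FPKM in colitis mice, so every colitis mouse was above every normal mouse. The log2 difference was 1.37 (SE 0.39, adjusted p = 0.0968). The Cyp2c genes lie together on chromosome 19, and Cyp2c40, Cyp2c67, Cyp2c68 and Cyp2c69 share 43.3% to 72.1% of their 50-base windows with another gene. Reads from them can be assigned to the wrong copy. For Cyp2c65 the share was 20.6%, nearly all of it with Cyp2c66, whose mean here was 0.0333 FPKM, and for Cyp2c55 it was below 10%.

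The promoters of these genes are shown because these neighbouring genes differed in opposite directions. They come from RefSeq (build GRCm38.p6, 250 bases before to 50 after the start), where 62 of the 74 members were matched. Capitals mark the motif CAAAGTCCA, a motif known for the nuclear receptor Hnf4a, searched on both strands.
Cyp2c68, chr19:39741052-39741351, minus strand: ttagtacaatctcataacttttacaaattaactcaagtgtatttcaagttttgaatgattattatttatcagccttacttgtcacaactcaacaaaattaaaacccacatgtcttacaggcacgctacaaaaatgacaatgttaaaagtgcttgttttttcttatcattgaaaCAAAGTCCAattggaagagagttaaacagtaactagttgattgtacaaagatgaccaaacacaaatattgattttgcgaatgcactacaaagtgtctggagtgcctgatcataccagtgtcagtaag
Cyp2c69, chr19:39886720-39887019, minus strand: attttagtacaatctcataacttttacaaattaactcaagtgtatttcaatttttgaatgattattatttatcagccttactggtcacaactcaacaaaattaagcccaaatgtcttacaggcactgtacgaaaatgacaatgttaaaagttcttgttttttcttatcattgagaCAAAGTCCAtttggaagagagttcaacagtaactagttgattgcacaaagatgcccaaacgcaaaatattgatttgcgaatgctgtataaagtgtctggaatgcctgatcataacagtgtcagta
Cyp2c65, chr19:39060756-39061055, plus strand: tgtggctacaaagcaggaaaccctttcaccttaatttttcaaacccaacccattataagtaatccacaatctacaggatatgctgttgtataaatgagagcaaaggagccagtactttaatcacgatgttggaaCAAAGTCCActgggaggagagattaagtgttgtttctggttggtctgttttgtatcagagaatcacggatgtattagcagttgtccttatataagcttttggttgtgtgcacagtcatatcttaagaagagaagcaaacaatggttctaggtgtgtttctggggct
Cyp2c55, chr19:39006769-39007068, plus strand: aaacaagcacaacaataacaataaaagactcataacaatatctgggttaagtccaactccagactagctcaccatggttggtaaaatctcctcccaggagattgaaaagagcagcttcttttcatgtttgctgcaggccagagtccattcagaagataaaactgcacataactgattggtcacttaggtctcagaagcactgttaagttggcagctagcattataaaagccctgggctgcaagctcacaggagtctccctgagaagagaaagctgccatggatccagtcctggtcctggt

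That motif was held by 129 of 27025 promoters (0.477%), and by 6 of the 62 members at their first listed start. All 6 were Cyp2c genes: Cyp2c40, Cyp2c65, Cyp2c67, Cyp2c68, Cyp2c69 and Cyp2c70. In Cyp2c68 and Cyp2c69 it starts 77 and 75 bases before the gene start, and their windows were 92.3% identical after global alignment. It was also held by Cyp2c65, which was higher in colitis, at 116 bases before the start, and it did not occur in the Cyp2c55 window. The core of the dioxin response element, GCGTG, was in 17 of 62 members against 32.5% of all promoters, and the antioxidant response element, TGACNNNGC, in 6 of 62 against 12.5%. Of the 27 matched members that were lower at the unadjusted limit, 3 held the Hnf4a motif, 7 GCGTG and 0 TGACNNNGC. These matches describe letters only, and no binding was measured. Hnf4a itself was 280.68, 272.5 and 237.95 FPKM in normal mice and 188.3, 100.54 and 184.15 FPKM in colitis mice (log2 -0.79, SE 0.29, adjusted p = 0.159).

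Cyp2d genes, 8 in all and neighbours on chromosome 15, split in this comparison. Cyp2d22 was 21.79, 21.86 and 20.49 FPKM in normal mice and 5.78, 8.40 and 6.28 FPKM in colitis mice (log2 -1.65, adjusted p = 0.118). Cyp2d11 (-1.22) and Cyp2d40 (-1.49) also passed the unadjusted limit with separate groups, Cyp2d11 at colitis levels of 0.05 to 0.13 FPKM, where 3 reads were worth 0.0991 to 0.154 FPKM. The 3 genes highest in normal mice did not: Cyp2d34 differed by -0.21, Cyp2d12 by -1.36 and Cyp2d10 by -0.12, and their groups overlapped. With the replicate number as a block Cyp2d12 differed by -1.99 and passed the adjusted limit (adjusted p = 0.0262). Cyp2d9 had a difference of 0.43.

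The remaining P450 genes were mostly lower. Cyp2f2, which activates naphthalene in the airways, was 44, 21.17 and 16.24 FPKM in normal mice and 5.98, 0.24 and 4.59 FPKM in colitis mice (log2 -3.54, SE 1.22, adjusted p = 0.143). Cyp2s1, an epithelial P450 under the aryl hydrocarbon receptor, was 59.99, 61.57 and 77.48 FPKM against 39.33, 7.39 and 25.64 FPKM (log2 -1.75, adjusted p = 0.133). Cyp3a13, the only Cyp3a gene above the level limit, was 73.6, 165.12 and 72.99 FPKM against 59.33, 57.71 and 38.06 FPKM (log2 -0.92, adjusted p = 0.193). The groups of these 3 genes did not overlap.

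The Cyp4 genes hydroxylate fatty acids and eicosanoids. Cyp4f16 (-1.57), Cyp4f13 (-0.78), Cyp4v3 (-1.35) and Cyp4b1 (-1.69) passed the unadjusted limit downwards, and the most abundant, Cyp4f14, differed by -0.76 (adjusted p = 0.375). Cyp4f18 and Cyp4f40 had higher means in colitis mice, with log2 differences of 1.04 and 0.81 and overlapping groups. Cyp2a12 (-1.51) and Cyp2u1 (-1.52) also passed the limit, at low levels. Cyp2a12 was 0.37, 0.14 and 0.23 FPKM in normal and 0, 0 and 0.06 FPKM in colitis mice, where 3 reads were worth 0.0456 to 0.065 FPKM. Cyp2u1 was 0.38, 0.82 and 0.21 FPKM against 0.06, 0.03 and 0.18 FPKM, with 3 reads worth 0.036 to 0.0506 FPKM. Cyp2r1 (-0.59), Cyp2w1 (-2.15), Cyp2j6 (0.34), Cyp2j13 (0.35), Cyp4f17 (-1.15), Cyp4f39 (-0.59), Cyp4x1 (0.81) and Cyp4a10 (0.33) did not pass it. Among the 8 mice not numbered 4 Cyp2w1 passed the adjusted limit in this comparison (-2.89, adjusted p = 0.0414) and in the one with BBR in both groups (-2.74, adjusted p = 0.0326). In those fits 5.25% and 15% of all genes passed it. Cyp2w1 was 0.07 and 0 FPKM in these colitis mice without BBR and 0.02 and 0 FPKM with it. Since 3 reads were worth 0.104 to 0.163 FPKM, the size depends on the 0.1 added before the logarithm.

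**Figure D2:**
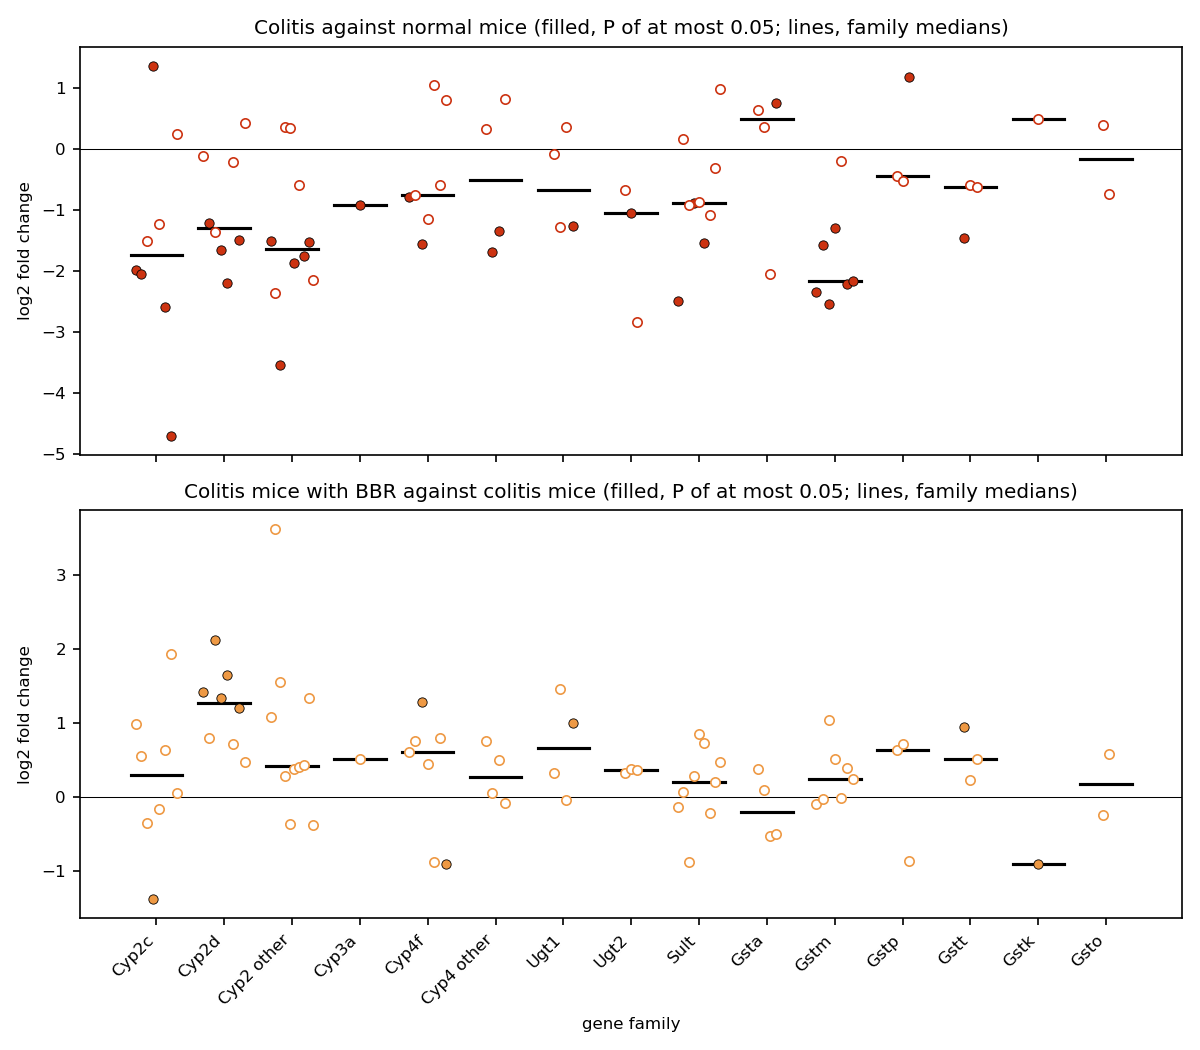
Log2 fold change of each gene by family, for colitis against normal mice (upper panel) and colitis mice receiving BBR against colitis mice (lower panel). Filled points have an unadjusted P of at most 0.05 and black lines are family medians. Among families of 2 or more genes, the Gstm median is lowest in the upper panel, at -2.17, and the Cyp2d median highest in the lower panel, at 1.27.

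The mu class of glutathione S-transferases, Gstm, was lower throughout. All 7 genes had lower means in colitis mice, 6 passed the unadjusted limit, and the median was -2.17. Their summed level was 806.4, 572.9 and 456.6 FPKM in normal mice and 198.5, 122.8 and 247 FPKM in colitis mice. Gstm1, the most abundant, was 390.96, 280.01 and 238.69 FPKM against 62.9, 32.47 and 95.6 FPKM (log2 -2.35, SE 0.57, adjusted p = 0.0674). Gstm6 differed by -2.21 (adjusted p = 0.067), Gstm3 by -2.54, Gstm7 by -2.17, Gstm2 by -1.58 and Gstm4 by -1.30. Gstm5, the brain and testis member, was 69.36, 59.23 and 38.71 FPKM in normal mice and 54.46, 49.03 and 39.57 FPKM in colitis mice, and its difference of -0.20 was within the spread (SE 0.28). After centring on the median Gstm5 alone of the 7 had a positive difference.

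In the theta class all 3 genes had lower means in colitis mice. Gstt1, a theta-class enzyme acting on small halogenated compounds, was 68.63, 48 and 33.67 FPKM in normal mice and 14.45, 28.4 and 12.71 FPKM in colitis mice (log2 -1.46, adjusted p = 0.0959), and Gstt2 (-0.59) and Gstt3 (-0.62) had separate groups but did not pass the unadjusted limit. Among the other classes, Gsta4, which clears the lipid peroxidation product 4-hydroxynonenal, was higher in colitis mice, at 56.11, 88.34 and 44.74 FPKM against 40.16, 39.72 and 28.89 FPKM (log2 0.75, SE 0.28, adjusted p = 0.163). Gstp3 was also higher, at 51.63, 16.25 and 26.39 FPKM against 16.16, 10.98 and 10.69 FPKM (log2 1.18, SE 0.42, adjusted p = 0.152). Both kept separate groups. The most abundant transferases, Gsto1 (0.39) and Gstp1 (-0.45), and the alpha-class Gsta1 (0.64) and Gsta3 (-2.05) and the mitochondrial and peroxisomal Gstk1 (0.50) did not pass the limit. The same held for Gsta2 (0.36), Gsto2 (-0.73) and Gstp2 (-0.53). Gstp1 and Gstp2 share 62.3% and 72.6% of their windows with other genes, mostly with each other, so their separate levels are uncertain.

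Conjugating enzymes of the Sult and Ugt families were lower where they passed the limit. Sult1a1, the phenol sulfotransferase, was 291.66, 187.17 and 134.27 FPKM in normal mice and 58.63, 12.6 and 55.52 FPKM in colitis mice (log2 -2.49, SE 0.79, adjusted p = 0.12). Sult2b1, the cholesterol sulfotransferase, was 61.56, 52.62 and 40.48 FPKM against 18.93, 12.27 and 22.33 FPKM (log2 -1.55, SE 0.41, adjusted p = 0.0792). Sult1d1 passed the unadjusted limit with overlapping groups (-0.88, adjusted p = 0.228), but in only 1 of 6 fits with a mouse left out. Sult1c2 (-0.92), Sult1e1 (-0.86), Sult4a1 (-1.08), Sult5a1 (-0.32) and Sult6b1 (0.99) did not pass it. Sult1b1, which sulfates thyroid hormone and was the most abundant Sult, was 287.07, 347.91 and 208.52 FPKM against 435.49, 347.78 and 195.68 FPKM, a difference of 0.17 (SE 0.35).

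Ugt1a7c, a glucuronosyltransferase of the gut epithelium, was 134.04, 112.84 and 85.72 FPKM in normal mice and 54.43, 31.82 and 54.29 FPKM in colitis mice (log2 -1.26, SE 0.40, adjusted p = 0.121). Ugt2b34, the most abundant Ugt, was 244.34, 233.84 and 162.39 FPKM against 155.25, 58.59 and 113.57 FPKM (log2 -1.06, adjusted p = 0.18). Both genes had separate groups. Ugt2b1, at most 0.23 FPKM, differed by -0.68. Bilirubin glucuronosyltransferase, Ugt1a1, did not differ beyond its spread (-0.08, SE 0.56). The Ugt1 genes share their last exons, and 38.9% to 80.7% of the windows of the 4 genes occur in another, so their separate levels are uncertain.

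Of the 33 members past the unadjusted limit 20 passed it with each of the 6 mice left out in turn. The 13 others were Cyp2a12, Cyp2d11, Cyp2d40, Cyp2f2, Cyp2s1, Cyp2u1, Cyp3a13, Cyp4f13, Cyp4f16, Gsta4, Gstp3, Sult1d1 and Ugt2b34. Without colitis mouse 2 the differences were -0.87 for Cyp2d40, -2.22 for Cyp2f2, -1.05 for Cyp2s1, 0.48 for Gsta4, -0.50 for Sult1d1 and -0.66 for Ugt2b34, none past the limit, and -1.68 for Gstm3, which passed it. Cyp3a13 had -0.53 without normal mouse 3 and Gstp3 0.74 without colitis mouse 1, both short of the limit.

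Markers of other cells moved with colitis as well. All 9 smooth muscle markers were lower and passed the unadjusted limit, and their summed level was 1990 to 3553 FPKM in normal mice and 90.34 to 805 FPKM in colitis mice. All 9 neutrophil and macrophage markers were higher, 6 of them past the limit, with sums of 287.4 to 730.6 and 625.6 to 4228 FPKM. The 16 colonocyte markers had a median difference of -0.18 with 0 past the limit, and summed to 19040 to 29720 FPKM in normal and 15980 to 27310 FPKM in colitis mice. Of 9 squamous epithelium markers 6 were tested, 3 higher and 3 lower, and Krt13 (1.92) and Krt6a (2.18) passed the limit upwards. The list summed to at most 9.53 FPKM in any mouse. The part of these shifts in the differences above was not tested. Within the mice numbered 4 the member median was -0.61 with 74.3% lower, beside -0.10 and 58.3% for all genes. Within the other mice it was -0.93 with 70.3% lower, beside -0.42 and 74.2% for all genes.

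**Figure D3:**
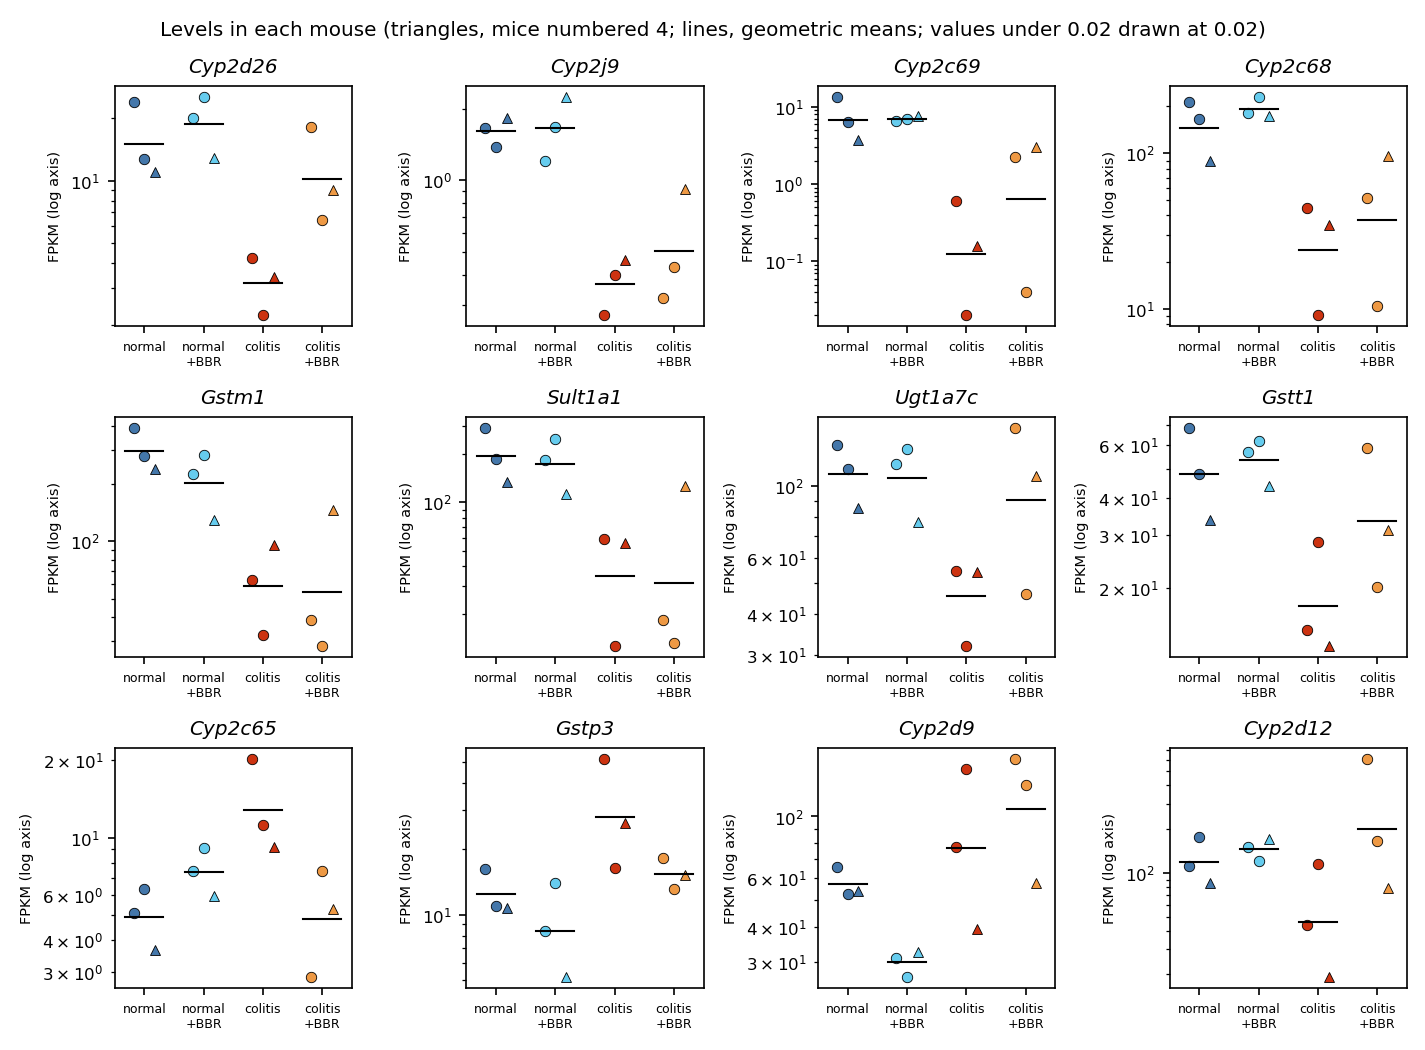
FPKM of 12 genes in each mouse on log axes, by group. Triangles are the mice numbered 4, circles the other mice, and lines geometric means. In the first 8 genes all colitis mice lie below all normal mice, in Cyp2c65 and Gstp3 all lie above, and in Cyp2d9 and Cyp2d12 the groups overlap.

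Genes that serve these enzymes were taken from lists of their pathway. Among 31 other drug-metabolizing enzymes tested, 25 were lower (80.6%, against 73.7% of all genes) and 15 passed the unadjusted limit, all downwards, with a median of -0.96. The carboxylesterase Ces1f fell by 2.82 (adjusted p = 0.0218), from 40.9, 16.52 and 11.54 FPKM to 2.84, 2.63 and 2.71 FPKM. The microsomal epoxide hydrolase Ephx1 fell by 1.58 (adjusted p = 0.043), from 20.09, 16.86 and 19.26 FPKM to 7.11, 5.68 and 5.87 FPKM. Others past the limit included the aldehyde dehydrogenases Aldh1a1 and Aldh3a1, the oxidases Aox1, Fmo1, Fmo2, Fmo4 and Fmo5, the hydrolases Bphl, Ces1d and Ces2g, and Gstz1 and Nqo1. Adh1, the alcohol dehydrogenase, was the most abundant of this list, at a mean of 934.7 FPKM over all mice.

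Of 18 xenobiotic sensors and regulators, 16 were lower and 2 higher (12 and 6 after centring), a share lower of 88.9%, with a median of -0.59. Past the unadjusted limit were Ahrr (-1.34), Cebpa (-0.84), Hnf4a (-0.79), Ppara (-1.77) and Vdr (-1.55) downwards and the bile acid receptor Nr1h4 (1.04) upwards. The pregnane X receptor Nr1i2 was 47.42, 56.15 and 38.19 FPKM in normal and 50.74, 33.96 and 38.15 FPKM in colitis mice, a difference of -0.21 (SE 0.24). Of 19 genes for electron and cofactor supply, 14 were lower (8 after centring), which is 73.7%, the share of all genes. Past the limit were Papss1 (-1.78), which makes the sulfate donor, Ugdh (-1.71), which makes the glucuronic acid donor, and Fdxr (-1.13) downwards. Alas1 (1.23), the first enzyme of haem synthesis, Slc35b1 (0.74) and Slc35b3 (0.39) passed it upwards, while the P450 reductase Por did not pass it (-0.53, adjusted p = 0.261).

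The second comparison, colitis mice receiving BBR against normal mice receiving BBR, uses the other 6 mice. Here 52 members were lower and 22 higher (35 and 39 after centring, 40 and 34 after quantile normalization), a share lower of 70.3% against 80.1% of all genes, and their median of -0.39 was close to that of all genes (-0.40). At the unadjusted limit 13 were lower and 3 higher, against 17.3% and 2.37% of all genes, so the members' share downwards was near that of all genes. No member passed the adjusted limit, where 4 genes of all rose and 2 fell. With the mice numbered 4 as a block Cyp2d9 (1.83) and Cyp2j9 (-1.53) passed it, both with adjusted p = 0.0441, as did 1.75% of all genes. In 8 members all colitis mice were lower and in 3 all were higher, against 18% and 2.26% of all genes. With centring the split past the unadjusted limit was 6 higher and 5 lower, against 7.08% and 4.06% of all genes, and with quantile normalization 5 higher and 6 lower, against 6.49% and 5.88%. Markers of other cells moved here too. All 9 smooth muscle markers were lower, 4 past the limit, with a median of -1.96. Of the neutrophil and macrophage markers 6 were higher and 3 lower, 3 and 2 of them past the limit. All 4 adipocyte markers tested had higher means, and Adipoq (4.37) and Cfd (6.03) passed the limit. The adipocyte list summed to 0.65 to 1.25 FPKM in normal mice receiving BBR and to 80.54, 35.59 and 2.47 FPKM in colitis mice receiving it. The part of these shifts in the members' differences was not tested.

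The members past the limit downwards were Cyp2c40, Cyp2c67, Cyp2c68, Cyp2c69, Cyp2j9, Cyp4b1, Cyp4v3, Gstm1, Gstm2, Gstm6, Gstm7, Sult1a1 and Ugt2b34. Cyp2c40 was 0.04, 0.04 and 0.17 FPKM in colitis mice receiving BBR. It passed the level filter only through the normal groups, so its count downwards supports nothing. Cyp2c68 was 180.64, 230.37 and 173.66 FPKM in normal mice receiving BBR and 51.93, 10.46 and 96.36 FPKM in colitis mice receiving BBR (log2 -2.36, SE 0.74, adjusted p = 0.215). Cyp2j9 was 1.2, 1.68 and 2.24 FPKM against 0.32, 0.43 and 0.92 FPKM (log2 -1.53, adjusted p = 0.207). For Gstm1 the levels were 224.22, 282.53 and 128.49 FPKM against 38.63, 28.16 and 146.17 FPKM (log2 -1.89, adjusted p = 0.215), and for Sult1a1 they were 183.54, 249.36 and 112.41 FPKM against 18.29, 13.3 and 125.83 FPKM (log2 -2.46, adjusted p = 0.215). In both genes the mouse numbered 4 was the highest of its colitis group and the lowest of its normal group. Between these 2 mice the log2 differences were above 0, at 0.19 for Gstm1, 0.39 for Gstm2, 0.18 for Gstm6, 0.76 for Gstm7 and 0.16 for Sult1a1, against -2.93, -2.04, -2.29, -2.55 and -3.77 in the other mice. In mouse 4 of the colitis group the smooth muscle markers summed to 3871 FPKM against 564.2 and 607.3 FPKM in the other 2, and the part of this was not tested. Without that mouse 25 members (33.8%) passed the unadjusted limit and 10 (13.5%) the adjusted one, shares below the 38.6% and 14.7% of all genes in the same fit. Without mouse 3 of the same group 8 passed the unadjusted limit, and without normal mouse 1 or 3 receiving BBR 10 and 9, where 9.44%, 15.4% and 11.1% of all genes did. Of the 16 members 6 passed it with each mouse left out in turn. Without mouse 3 the differences were -1.45 for Cyp2c68, still past the limit, and -1.40 for Cyp2c69, -0.34 for Cyp4v3 and -0.49 for Ugt2b34, no longer past it.

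Taking both comparisons side by side, which share no mouse, 47 of 74 members were lower in both, 13 higher in both and 14 opposite, where 67.9% of all genes were lower in both. The 12 members past the unadjusted limit in both were all lower in both, 16.2% of the members against 7.25% of all genes: Cyp2c40, Cyp2c68, Cyp2c69, Cyp2j9, Cyp4b1, Cyp4v3, Gstm1, Gstm2, Gstm6, Gstm7, Sult1a1 and Ugt2b34. Cyp2c40 passed the level filter only through the normal groups, so its place among the 12 supports nothing. With quantile normalization 6 members were past it and lower in both (Cyp2c68, Cyp2j9, Gstm1, Gstm2, Sult1a1 and Ugt2b34) and 2 higher (Gsta4 and Gstp3), against 2.96% and 3.47% of all genes. With centring 5 were lower (Cyp2c68, Cyp2c69, Cyp2j9, Gstm1 and Sult1a1) and 3 higher (Gsta4, Gstp3 and Sult6b1), against 2.19% and 3.57%.

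**Figure D4:**
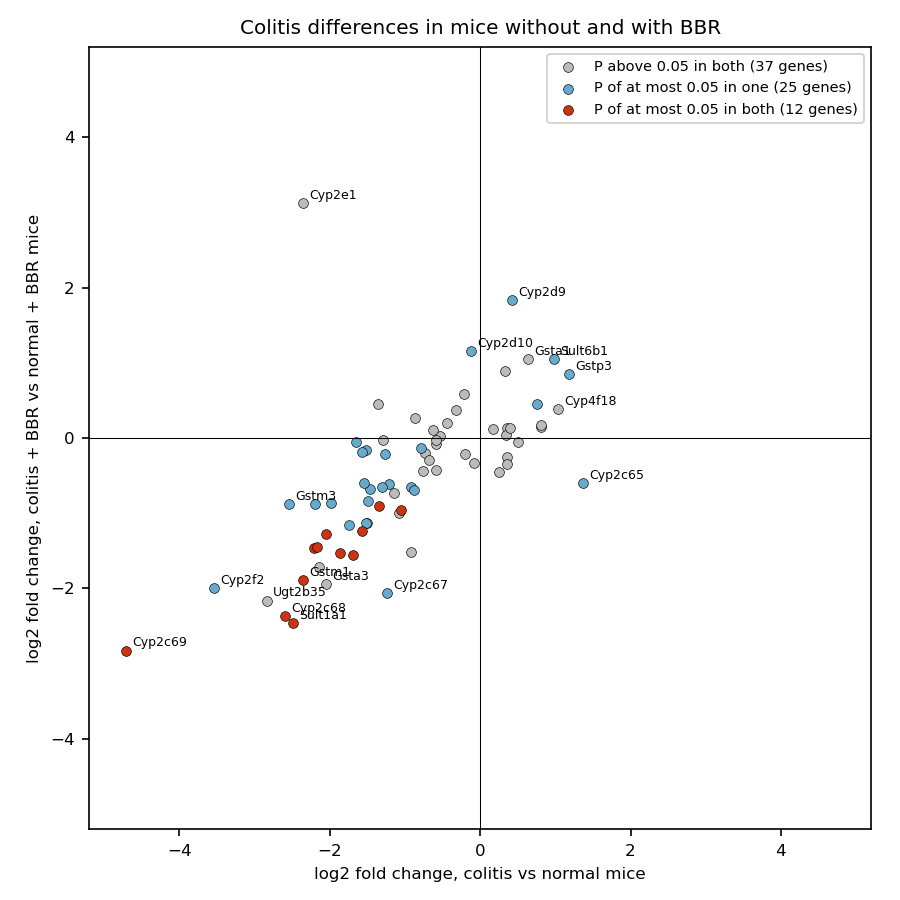
Log2 fold change of the 74 genes in colitis against normal mice (x axis) and in colitis mice receiving BBR against normal mice receiving BBR (y axis), 2 comparisons with no mouse in common. Red points have an unadjusted P of at most 0.05 in both and blue points in one. The 12 red points (8 with either other scaling, not all lower) lie in the lower left, from Cyp2c69 at -4.71 and -2.83 to Ugt2b34 at -1.06 and -0.95, and Cyp2c65 and Cyp2e1 lie in opposite corners.

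Upwards, Cyp2d9, Cyp2d10 and Sult6b1 passed the unadjusted limit. Cyp2d9, a male-biased steroid hydroxylase in the liver, was 30.86, 26.34 and 32.64 FPKM in normal mice receiving BBR and 161.14, 129.45 and 57.78 FPKM in colitis mice receiving BBR (log2 1.83, SE 0.45, adjusted p = 0.196). Cyp2d10 was 98.18, 100.33 and 74.31 FPKM against 316.21, 244.07 and 103.96 FPKM (log2 1.15, adjusted p = 0.222). Sult6b1, at 0, 0.1 and 0.13 FPKM against 0.2, 0.39 and 0.18 FPKM, reached the mean of 0.1 FPKM only through the colitis groups, so its count upwards supports nothing. It lay under the level of 3 reads in 6 of 12 mice, and its difference of 1.05 was 0.69 and short of the limit without normal mouse 1 receiving BBR. Cyp2d10 shares 40.5% and Cyp2d9 29% of their windows with other genes, mostly of their own family.

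The third comparison asked what BBR changed in colitis mice. With BBR 54 members had higher and 20 lower means, a share lower of 27.0% against 62.0% of all genes, with a median of 0.41 against -0.09 over all genes. At the unadjusted limit 8 were higher and 3 lower, against 1.19% and 5.2% of all genes. In this comparison 0 genes of all passed the adjusted limit with limma, members included, so the values below are differences that did not pass it. Past the unadjusted limit the split of members was 13 higher and 1 lower with centring, against 2.99% and 3.49% of all genes, and 17 higher and 2 lower with quantile normalization, against 3.17% and 4.11%. Of the 11 members past the unadjusted limit, Cyp2c65, Cyp2d10 and Cyp2d26 passed it with each mouse left out in turn. The 3 colitis mice without BBR also enter the comparison with normal mice, so the values of both are given side by side only.

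In the Cyp2d family 8 of 8 genes were higher with BBR, 5 past the unadjusted limit, and the median was 1.27. Their summed level was 506.6, 712.8 and 323.9 FPKM in colitis mice and 1872, 959.9 and 571.6 FPKM in colitis mice receiving BBR, against 572.5 to 707.5 FPKM in normal mice. All 8 were also higher with quantile normalization, centring, or without the mice numbered 4. Cyp2d26 was 4.23, 2.22 and 3.40 FPKM in colitis mice and 18.08, 6.43 and 9 FPKM with BBR, with no overlap (log2 1.65, SE 0.43, adjusted p = 0.486). Cyp2d12 was 43.53, 116.06 and 19.10 FPKM against 608.82, 165.75 and 78.45 FPKM (log2 2.12, SE 0.71, adjusted p = 0.586). It no longer passed the unadjusted limit without mouse 2 receiving BBR (1.31) or without colitis mouse 4 (1.49).

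Cyp2d10, Cyp2d22 and Cyp2d40 also passed the limit with overlapping groups. Cyp2d10 was 76.88, 128.97 and 42.3 FPKM against 316.21, 244.07 and 103.96 FPKM (log2 1.42, SE 0.44, adjusted p = 0.524). Cyp2d22 was 5.78, 8.40 and 6.28 FPKM against 38.18, 5.75 and 22.82 FPKM (log2 1.34, SE 0.52, adjusted p = 0.66), and its level in mouse 3 receiving BBR was that of untreated colitis mice. Without mouse 3 it differed by 2.12 and passed the adjusted limit (adjusted p = 0.0165), the only member that did so. It did not pass the unadjusted limit without mouse 2 (0.76) or mouse 4 (1.13) receiving BBR, or without colitis mouse 1 (1.23) or 4 (1.29). Cyp2d40 had a difference of 1.2 (adjusted p = 0.764), which was short of the limit in 3 of 6 fits with a mouse left out, at 0.58 without colitis mouse 2 and at 0.83 and 1.12 without mouse 2 or 4 receiving BBR. Cyp2d34, the P450 with the highest mean over all mice, was 292.41, 307.22 and 206.22 FPKM against 712.74, 403.23 and 288.33 FPKM and missed the limit (0.72, adjusted p = 0.812).

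Beyond Cyp2d, Ugt1a7c (1.00, adjusted p = 0.698), Gstt1 (0.94, adjusted p = 0.752) and Cyp4f16 (1.28, adjusted p = 0.752) were higher. Ugt1a7c was 54.43, 31.82 and 54.29 FPKM in colitis mice and 151.59, 46.22 and 107.18 FPKM with BBR. Gstt1 was 14.45, 28.4 and 12.71 FPKM against 58.75, 20.15 and 31.29 FPKM. In both, mouse 3 receiving BBR lay within the range of colitis mice without it. Cyp4f16 was 24.17, 31.17 and 19.85 FPKM against 192.4, 42.3 and 26.21 FPKM, with mouse 2 far above the others. Without mouse 2 the differences were 0.63 for Ugt1a7c, 0.53 for Gstt1 and 0.43 for Cyp4f16, none past the unadjusted limit. The limit was passed in 3, 2 and 3 of 6 fits with a mouse left out.

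Cyp2c65, Gstk1 and Cyp4f40 had lower levels with BBR. Cyp2c65, the Cyp2c gene that was higher in colitis, was 20.26, 11.18 and 9.24 FPKM in colitis mice and 2.86, 7.42 and 5.29 FPKM with BBR, with no overlap (log2 -1.39, SE 0.39, adjusted p = 0.486). The levels with BBR were near those of normal mice, 5.09, 6.31 and 3.66 FPKM. It passed the unadjusted limit in every alternative and with each mouse left out in turn, with differences from -1.69 to -1.02. Gstk1 was 122.74, 61.41 and 57.47 FPKM against 38.28, 49 and 34.41 FPKM (log2 -0.91, SE 0.34, adjusted p = 0.638), again with no overlap, but without colitis mouse 1 it differed by -0.57 and did not pass the limit. Cyp4f40 was 64.55, 20.16 and 50.01 FPKM against 19.04, 23.91 and 21.50 FPKM (log2 -0.91, adjusted p = 0.779), and the groups overlapped. It passed the unadjusted limit in 1 of 6 fits with a mouse left out, and its difference was -0.57 without colitis mouse 1 and -1.41 without colitis mouse 2.

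For the Gstm genes, lower in colitis mice, values with and without BBR overlapped. Their summed level was 163.4, 132.8 and 332 FPKM in colitis mice receiving BBR against 198.5, 122.8 and 247 FPKM without, the median of the 7 genes was 0.24 with 4 higher and 3 lower, and 0 passed the limit. After quantile normalization or centring 7 of 7 were higher and 1 passed the unadjusted limit. Cyp2c68 differed by 0.63, Cyp2c69 by 1.93 (adjusted p = 0.885) and Sult1a1 by -0.14. The SEs were 0.57 for Gstm1, 0.74 for Cyp2c68 and 0.79 for Sult1a1, so differences of that size were not detectable for these genes.

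Colitis mice receiving BBR differed widely among themselves. The members summed to 6731 FPKM in mouse 2, 3026 in mouse 3 and 3559 in mouse 4, against 2496 to 3769 in colitis mice and 3430 to 5405 in normal mice. Mouse 2 held the highest level of the 12 mice for Gsta1 (405.84 FPKM), Gstp1 (1078.19 FPKM), Ugt1a6a (51.49 FPKM) and Cyp2d12. Without mouse 2 the count past the unadjusted limit was 5 members, and without mouse 3 it was 26, where 3.24% and 10.8% of all genes passed it. Markers shifted between these mice as well: smooth muscle markers were 9 of 9 higher with BBR with 0 past the limit, at 607.3, 564.2 and 3871 FPKM summed, and the 9 neutrophil and macrophage markers were all lower, 3 past the limit, at sums of 2109, 2967 and 505.9 FPKM against 1910, 4228 and 625.6 FPKM. Of 4 adipocyte markers 3 had higher means with BBR, and Adipoq (3.47) and Cfd (4.85) passed the limit. The list summed to 80.54, 35.59 and 2.47 FPKM with BBR and to 7.19, 8.79 and 2.64 FPKM without, and normal mouse 4 held 128.4 FPKM. All 6 squamous markers tested had lower means, and Krt6a (-1.70) passed the limit. Their part in the differences was not tested.

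For the pathway lists few genes passed the limit with BBR in colitis. Of the sensors 9 were higher and 9 lower with 0 past the limit. For supply genes the counts were 13 and 6, with Gclm (0.81), of glutathione synthesis, past it upwards and Alas1 (-1.18) downwards. Alas1 was 123.2, 64.56 and 78.58 FPKM in colitis mice and 20.36, 63.08 and 41.93 FPKM with BBR, without overlap. Of the other drug-metabolizing enzymes 21 were higher and 10 lower, and Aldh1a1 (1.46) and Cbr3 (1.66) passed the limit upwards.

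The fourth comparison, BBR in normal mice, had 34 members with a higher and 40 with a lower mean, and a median of -0.04, against -0.02 for all genes. With limma 0 members passed the unadjusted limit in either direction, where 0.516% of all genes passed it upwards and 0.842% downwards, and 0 genes of all passed the adjusted limit. Cyp2d9 was 65.55, 52.4 and 53.99 FPKM in normal mice and 30.86, 26.34 and 32.64 FPKM with BBR, without overlap (log2 -0.93, SE 0.45, adjusted p = 1). Same-numbered mice of these 2 groups deviated in the same direction, though mice 1 and 3 did so across numbers too. With the replicate number as a block Cyp2d9 (-0.93) and Cyp2c65 (0.58) passed the unadjusted limit, both with adjusted p = 1. That count of 2 stands beside 2.56% of all genes. The Gstm genes were 7 of 7 lower with a median of -0.37 (6 of 7 after quantile normalization or centring), each short of the limit. Of the cell markers, 9 of 9 for smooth muscle had higher means (median 0.58). Lower means were found for 4 of 4 adipocyte (-2.545) and 13 of 16 colonocyte markers (-0.14). Among these markers 0 passed the limit, and their part in the differences was not tested. Among the pathway lists only the carboxylesterase Ces1g passed the unadjusted limit (-1.19, adjusted p = 1).

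The interaction asked whether the difference with BBR was itself different between colitis and normal mice. At the unadjusted limit 2 members were higher and 1 lower, against 0.699% and 1.72% of all genes, and 0 genes passed the adjusted limit. Cyp2c65 had the lowest P of the members (-1.97, SE 0.54, adjusted p = 1): it differed by -1.39 with BBR in colitis and by 0.58 in normal mice. Cyp2d9 (1.40) and Cyp2d26 (1.33) passed it with positive values, in 2 and 4 of 12 fits with a mouse left out. Without colitis mouse 4 Cyp2d9 had 0.92. Without mouse 3 of the colitis mice receiving BBR 12 members passed, without mouse 4 of that group 7, without mouse 2 of it 1, without mouse 1 of the normal mice receiving BBR 1, and without colitis mouse 2 5. In these fits 1.72% to 5.8% of all genes passed, the most without mouse 3. For Cyp2d9 the difference with BBR was 0.47 in colitis and -0.93 in normal mice.

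Some members differed between the mice numbered 4 and the others in every group. Ugt1a6b, a phenol glucuronosyltransferase, was 8.40, 7.96, 6.37 and 16.59 FPKM in the mice numbered 4 and at most 0.33 FPKM in the other 8. Its neighbour Ugt1a6a overlapped between them, at 3.86, 4.27, 4.11 and 9.24 FPKM against 2.02 to 51.49 FPKM. Ugt1a6b shares 80.7% of its windows with Ugt1a7c, so the split between these transcripts is uncertain. Gsta2 was listed at 0 in all mice numbered 4 and at 0.09 to 4.57 FPKM in the others, while 64.2% of its windows occur elsewhere, as do 89.7% of those of Gsta1.

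Ugt2b35 and Sult1e1 were higher in all 4 mice numbered 4. Ugt2b35 was 14.08, 24.17, 16.68 and 18.36 FPKM in the mice numbered 4. In the others it was 3.18 to 9.49 FPKM in the 4 normal mice of both groups and 0.1 to 0.71 FPKM in the 4 colitis mice. Among these 8 mice it passed the adjusted limit in colitis against normal (log2 -4.38, adjusted p = 0.0334), as did 5.25% of all genes. In the full comparison it did not pass (-2.84, adjusted p = 0.304). Sult1e1, the oestrogen sulfotransferase, was 2.54, 1.37, 0.34 and 0.39 FPKM in the mice numbered 4 and at most 0.13 FPKM in the others.

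Cyp2e1, the ethanol-oxidizing P450, was 33.67 FPKM in normal mouse 4 and at most 0.37 FPKM in the other 8 mice outside the colitis group receiving BBR. There it was 4.05, 2.81 and 0.29 FPKM. The adipocyte markers summed to 128.4 FPKM in normal mouse 4 and to 80.54, 35.59 and 2.47 FPKM in colitis mice receiving BBR, against at most 8.79 FPKM in the other 8 mice. The part of adipose tissue in the Cyp2e1 levels was not tested, and no comparison of Cyp2e1 passed the unadjusted limit with all mice. Among the 8 mice not numbered 4 it passed the adjusted limit in colitis against normal mice with BBR (log2 4.83, adjusted p = 0.00959), as did 15% of all genes. The normal mice receiving BBR were at 0 and 0.05 FPKM in that fit, under the 0.0859 to 0.131 FPKM that 3 reads are worth. The size therefore depends on the 0.1 added before the logarithm.

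**Figure D5:**
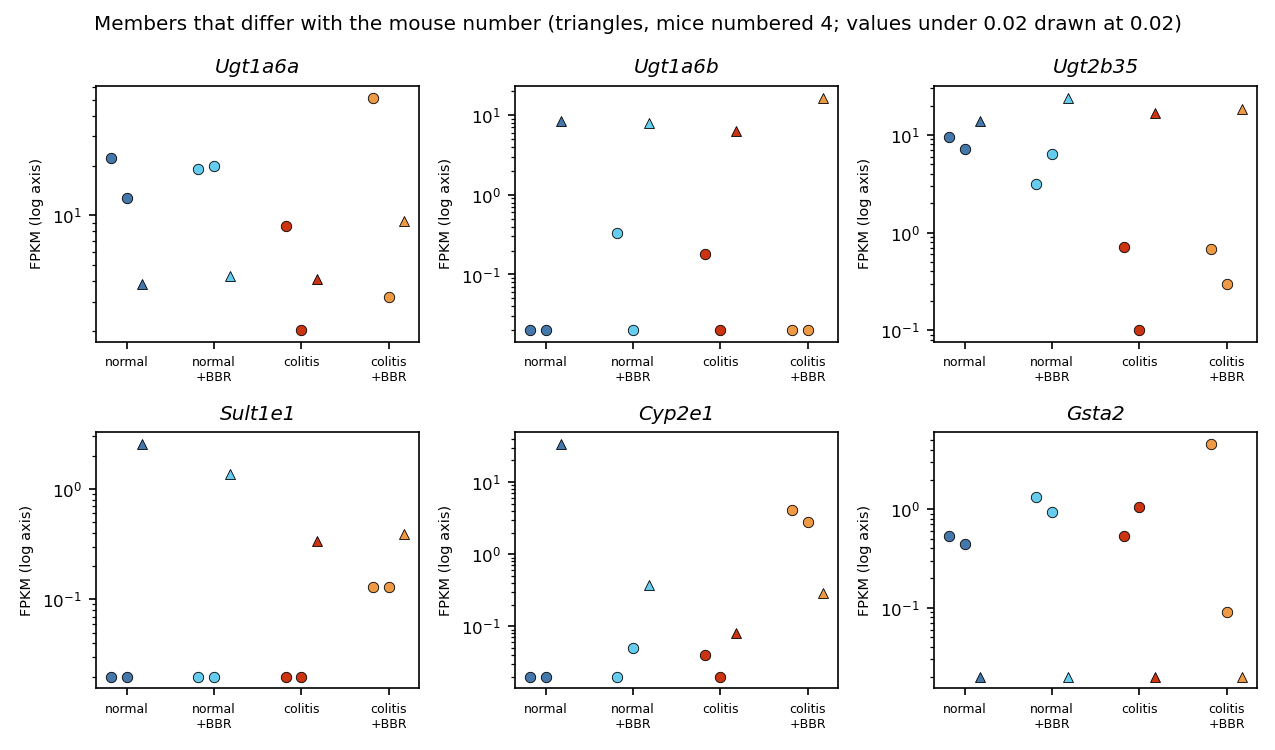
FPKM of 6 genes in each mouse on log axes, by group, with values under 0.02 drawn at 0.02. Triangles are the mice numbered 4 and circles the other mice. Ugt1a6b lies above 6 FPKM in all 4 triangles and at or below 0.33 FPKM in all circles, Gsta2 is at 0 in all triangles, and Cyp2e1 is highest in normal mouse 4, at 33.67 FPKM.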

How the data were processed

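Bulk RNA of 12 mice was sequenced by the authors as single reads on a BGISEQ-500 after removal of ribosomal RNA, per the methods of the study; the sample labels name another kit. The authors filtered reads with SOAPnuke, aligned them with Bowtie2 2.2.5 and estimated gene levels with RSEM 1.2.12; the submitters' notes give mm9. The deposited values are read as FPKM from their size and steps, and TPM of part of the genes cannot be told apart. They were used without further scaling, and 0 columns were left unused.

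Groups and mouse numbers came from the sample labels. For 15315 genes, those averaging 0.1 or more, log2(FPKM + 0.1) was fitted by limma 3.58.1 (R 4.3.3) over all 12 mice, taking a mean for each group and a trend in the spread. Fold changes therefore understate differences of low genes. P-values were adjusted by Benjamini-Hochberg over all genes, with a limit of 0.05, and the study's unadjusted limit is given beside it. Mice were taken as separate animals, and nothing says how cages or days were shared.

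The genes and lists were chosen with earlier results of these data known. The text names members past a limit in any of the 5 comparisons, the most abundant of each family and the 5 lowest P in 2 comparisons, and genes of the lists that pass a limit or lead their list. Between the normal groups the deviations of the 3 same-numbered pairs correlated at 0.29, 0.109 and 0.657, each above 0.1, but mice numbered 1 and 3 also correlated across numbers (0.366 and 0.456). Mice numbered 4 correlated at 0.357 to 0.751 between all groups. Windows of 50 bases were compared between transcripts of GENCODE vM21. Depth was estimated from low values of 254 to 306 genes with 1 transcript, of which 53.8% to 64.6% fell within 0.15 of a whole read. Figures were drawn in Python 3.11.15 with matplotlib 3.10.9. Alternatives were another added constant, filter, scaling or fit, the mouse number as a block, and leaving out mice.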

Additional observations from a re-analysis of the deposited data

How the results depend on the processing

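No member past a limit changed sign under any alternative fit over several mice per group, and list genes were not refitted gene by gene. Counts by direction under other scalings are given beside the results. The count of members past the adjusted limit in colitis against normal mice, 2, was 1 with 0.01 added, with a mean of 1 required, with no filter, after quantile normalization and after centring. It was 9 with the compared groups alone, 8 in mice numbered 1 to 3 and 14 with the mice numbered 4 as a block (3.19%, 5.25% and 9.22% of all genes), and it was 0 to 0 with 1 mouse left out. The cause was not tested. With BBR in both groups, 0 became 2 with the mice numbered 4 as a block, 15 in mice numbered 1 to 3, and 0 to 10 with 1 mouse left out. Of all genes 1.75%, 15% and 0% to 14.7% passed in these fits. With 1 mouse left out the unadjusted count of 16 ran from 8 to 25, where 9.44% to 38.6% of all genes passed. For BBR in colitis the unadjusted count of 11 was 19 after quantile normalization, 7 with the compared groups alone and 5 to 26 with 1 mouse left out, and the adjusted count 0 to 1. Of all genes 7.28%, 3.51% and 3.24% to 10.9% passed the unadjusted limit in these fits. For BBR in normal mice the unadjusted count of 0 was 1 with the compared groups alone, in mice numbered 1 to 3, and with the mice numbered 4 as a block. In these fits 4.91%, 1.8% and 2.43% of all genes passed. For the interaction the count of 3 was 6 after quantile normalization, 1 with no trend, 5 with the mice numbered 4 as a block, 7 in mice numbered 1 to 3 and 1 to 12 with 1 mouse left out. The shares of all genes in these fits were 2.98%, 2.58%, 4.38%, 3.39% and 1.46% to 5.8%.

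With the replicate number as a block, 11 members passed the adjusted limit in colitis against normal mice, beside 4.79% of all genes. The unadjusted counts were 21 for BBR in colitis, 2 for BBR in normal mice and 9 for the interaction. Of all genes 11%, 2.56% and 5.09% passed there. Number 2 occurs only in the colitis groups, so this block is unbalanced. Same-numbered mice correlated at 0.078 to 0.751 in their deviations, at 0.357 to 0.751 where both were numbered 4. No label says what a number marks. Where an arm had 2 mice the spread was pooled over groups. Over the members 3 reads were worth 0.036 to 0.467 FPKM, depending on transcript length and mouse.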
